A study of Mus musculus with 4 samples.

Results

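Mouse embryonic stem (ES) cells heterozygous for Sall4 were compared with and without a layer of feeder cells, by the array named for each condition in the labels. These were 2 of the 4 arrays of the series, 1 per condition, and both came from line HET18, an E14.1 ES line whose Sall4 genotype is flox/-. The other 2 arrays came from line KO1, labelled null for Sall4 (delta/-) and grown under the same 2 conditions, and are set beside the heterozygous pair where they bear on it. Every culture had been electroporated with a vector that targets an IRES and a blasticidin-resistance gene to Oct3/4, and every culture received serum, leukaemia inhibitory factor (LIF) and blasticidin, which selects for cells that express Oct3/4. Without feeders the cells grew on gelatin. With feeders they grew on mouse embryonic fibroblasts that were themselves resistant to blasticidin. The labels do not say whether feeders were taken out before RNA was extracted, so an array from a culture on feeders can hold RNA of both cell types. Each condition is 1 array of 1 line. No spread between replicates was measured, no p-value can be given, and precision is limited by having so few arrays.

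Mouse ES cells were long grown on embryonic fibroblasts, which supply LIF, matrix and attachment to the colonies. LIF acts through the gp130 receptor, JAK kinases and STAT3 to hold ES cells in a naive state, marked by Klf4, Tfcp2l1, Esrrb and Nanog. Cells that drift toward the state of the implanted epiblast, called primed, gain Pou3f1, Fgf5, Dnmt3a, Dnmt3b and Lef1 while they still express Oct3/4 and Sox2.

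The values are linear array signals. A difference is given as log2(signal + 4.6) with feeders minus without, where 4.6 is the 25th percentile of all signals, so that a positive value is higher on feeders and a value of 1 is a 2-fold difference. The added 4.6 draws differences of weak signals toward 0. Of 18193 named genes, 11606 had their brighter heterozygous array above 17.1, the median of all signals, and all counts below are over those genes. Each of the 4 arrays had a 2% trimmed mean of 100.0, so this value reflects a common scaling and does not check that the arrays compare. The heterozygous arrays had median signals of 16.1 without and 17.1 with feeders, and ratios of 3' to 5' actin signal of 1.275 and 1.289. Sall4 itself, the gene named in the genotype, read 1126 without and 781 with feeders, a difference of -0.53, against 1670.5 and 1452 in the line labelled null. The signal was therefore not lower in the line labelled null. Where the 2 Sall4 probe sets lie relative to the deleted part was not analysed here, so they do not check the genotype labels.

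On feeders, 1025 genes (8.83%) were at least 2-fold higher and 225 (1.94%) at least 2-fold lower. Of the differences of this size, 82.0% were thus higher on feeders. That share was 69.0% when each array was centred on its median, which shifted every difference by -0.155, and 72.8% after quantile normalization. Most genes lay close to equality. The median over all 11606 was 0.04, 53.4% were above 0, and the middle part from the 25th to the 75th percentile ran from -0.24 to 0.41. The tails were unequal: the 1st and 5th percentiles were -1.25 and -0.71, and the 95th and 99th were 1.44 and 3.01. At 4-fold there were 331 genes higher and 21 lower, at 8-fold 121 and 2, and at 16-fold 52 and 0. Fewer cells of a type and less RNA per cell cannot be told apart in such an array, here or in any result below.

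**Figure D1:**
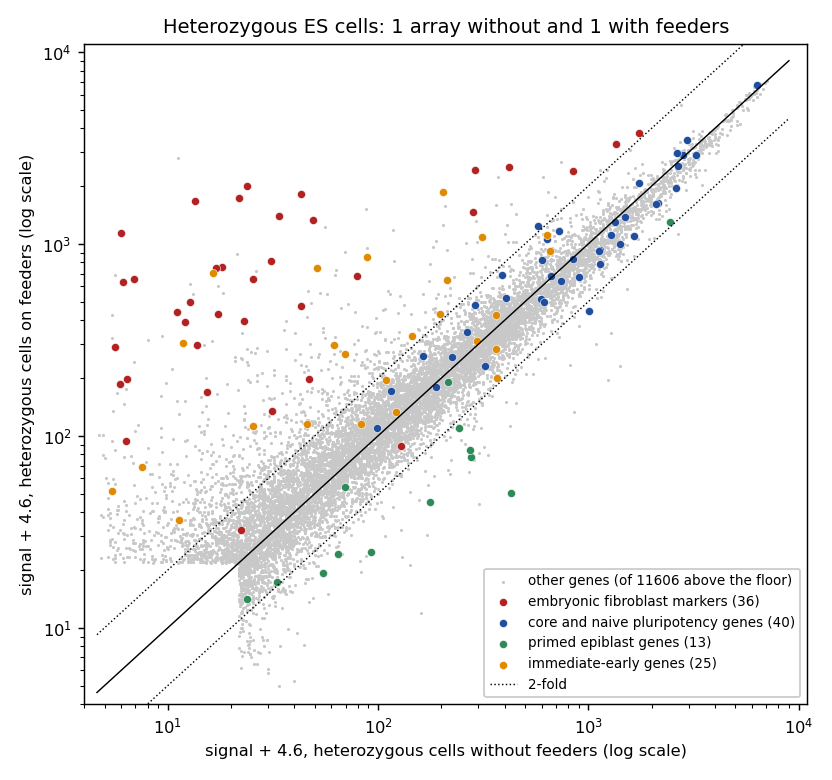
Each point is 1 of 11606 genes, with its signal plus 4.6 on the heterozygous array without feeders on the x axis and on the array with feeders on the y axis, both logarithmic. Fibroblast markers (red) lie up to the highest values above the 2-fold line, pluripotency genes (blue) lie along the diagonal, 8 of 13 primed epiblast genes (green) lie below the lower 2-fold line, and 16 of 25 immediate-early genes (orange) lie above the upper one.

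Many of the genes that differed were dim on one array. Of the 1025 higher on feeders, 150 read at or below 4.6 without feeders and a further 347 between 4.6 and 17.1. Their median differences were 2.36 and 1.59. A further 408 began between 17.1 and 100 and 120 above 100, with medians of 1.40 and 1.30. Among the lower genes, 34 of the 225 (15.1%) read at or below 4.6 on feeders and 67 (29.8%) between 4.6 and 17.1, beside 14.6% and 33.9% of the higher genes on gelatin. Of the 150 dimmest, 72.0% were also at least 2-fold higher on feeders in the line labelled null, against 33.3% of the 120 brightest. For these shares the arrays of the line labelled null did not have to be above 17.1. The share of genes called fell with brightness: 12.4% of genes whose brighter array read between 17.1 and 50 were higher on feeders, and 4.31% of those above 1000. Where a gene had another probe set above 17.1, that probe set was 2-fold in the same direction for 305 of 416 higher genes (73.3%) and for 41 of 75 lower genes (54.7%). It was 2-fold in the opposite direction for 2 higher genes and no lower gene.

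Feeder-type genes made the largest differences. In a list of 40 fibroblast markers, 38 were read on the array and 36 were bright. Of these 36, 34 were at least 2-fold higher on feeders, none was lower, and the median difference was 4.70, against 0.04 over all genes. Their summed signal went from 5537 without to 36082 with feeders. Mgp, the calcification inhibitor of cartilage and vessel wall, read 6.6 without and 2788 with feeders, a difference of 7.96. Postn (periostin, a matrix protein of fibroblasts) went from 1.4 to 1136, a difference of 7.57. Lox, which cross-links collagen, went from 8.8 to 1663 (6.96). Each of these was below 17.1 on gelatin and above 1000 on feeders. Their order depends on the offset: with 1 in place of 4.6, Postn differed by 8.89 and Mgp by 8.52.

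The fibrillar collagens were also much brighter on feeders. Col1a1, a chain of type I collagen, read 1.5 without and 627 with feeders, a difference of 6.69, and in the line labelled null 36.0 and 1136, a difference of 4.81. Col1a2, the partner chain, read 38.4 and 1812 (5.40), and in the line labelled null 36.2 and 2506 (5.94). Col3a1, of type III collagen, read 19.2 and 1992 (6.39). In the line labelled null it was already 244 on gelatin and 2776 on feeders, which gave a smaller difference of 3.49. In both lines the feeder array was the higher for all 3 collagen chains.

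Other genes among the 20 highest have several roles. The matrix proteins Bgn (biglycan) and Ogn (osteoglycin) differed by 6.31 and 6.30, from 17.1 to 1719 and from 0.8 to 421. Tnc (tenascin C) differed by 5.37, from 29.3 to 1397. Cd44, the hyaluronan receptor, went from 16.8 to 877 (5.36), although its 4 probe sets ranged from -0.03 to 5.36. Cdh11, the cadherin of mesenchymal cells, went from 12.4 to 745 (5.46). S1pr3, a receptor for sphingosine 1-phosphate, went from 8.2 to 615 (5.60). Prrx1, a homeobox factor of limb and connective tissue mesenchyme, differed by 5.32 by its brightest probe set, with its 6 probe sets between -1.25 and 5.32. Osmr, Fbln5 and Lyz1, also among the top 20, had a probe set with the opposite sign too, at -0.13, -1.34 and -1.26. So did Igfbp7, Ptn, Il6st, Anxa1, Plat and Sparc, named below, at -0.11, -0.83, -0.36, -0.42, -1.21 and -0.38. The ranges given for probe sets include dim ones. Among probe sets above 17.1, as stated, 2 of all the higher genes had one that was 2-fold opposite.

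A different pattern held for feeder-type genes that ES cultures also showed on gelatin. Vim (vimentin, the intermediate filament of mesenchymal cells) read 1730.3 without and 3794 with feeders, a difference of 1.13. Its 3 probe sets ranged from 0.64 to 1.13. In the line labelled null Vim read 4448 and 4317, a difference of -0.04, so the heterozygous gelatin array was the lowest of the 4. Anxa1, a calcium-dependent phospholipid-binding protein, gave the same picture: 1135 and 2428 in heterozygous cells (1.09) against 3303 and 2717 in the line labelled null (-0.28). Fn1 (fibronectin) went from 1351 to 3319 (1.29), and in the line labelled null from 1835 to 3579 (0.96). The other of its 2 probe sets differed by 0.38 in heterozygous cells. S100a6, a small calcium-binding protein, went from 414 to 2515 (2.59). Acta2, the smooth muscle actin of activated fibroblasts, went from 733 to 2654 (1.85). These are among the brightest genes that were at least 2-fold higher on feeders.

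Proteins that fibroblasts secrete or use to remodel matrix were also higher. Of 21 bright matrix proteases and inhibitors, 16 were higher and 1 lower (median 1.90), against 8.83% and 1.94% of all genes. Timp3, which inhibits metalloproteases, went from 21.6 to 720.2 (4.79), and the stromelysin Mmp3 from 10.2 to 293 (4.33). Of 15 bright chemokines and cytokines, 9 were higher and 1 lower (median 1.64). The monocyte chemokine Ccl2 went from 1.1 to 163 (4.88), and Cxcl12, which guides stem and progenitor cells, from 19.2 to 278 (3.57). The cytokine Il6 went from 0.1 to 96.8 (4.43), and in the line labelled null from 0.3 to 24.2 (2.56). Another 8 of the 23 chemokines read were dim on both heterozygous arrays.

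Among 33 bright secreted growth factors and antagonists, 22 were higher and none lower (median 1.76), against 8.83% and 1.94% of all genes. Igfbp7, a binding protein for insulin-like growth factors, went from 12.8 to 599 (5.12). Ptn (pleiotrophin, a heparin-binding growth factor) went from 58.3 to 726 (3.54). Grem1, which binds and blocks BMPs, read 1.0 without and 79.5 with feeders in heterozygous cells (3.91), against 31.9 and 61.3 in the line labelled null (0.85). Fst (follistatin, which binds activin), chosen after seeing its values, read 41.5 and 411 in heterozygous cells (3.17), but 191 and 211 in the line labelled null (0.14). For both antagonists the 2 feeder arrays and the null gelatin array were above the heterozygous gelatin array.

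Positional and growth-control genes followed with smaller differences, and their counts stand beside 8.83% higher and 1.94% lower among all genes. Of 29 Hox genes, which record the body position of a cell, 26 were read and 12 were bright; 8 of the 12 were higher and none lower (median 1.51). Hoxb3 went from 1.6 to 40.9 (2.88) and Hoxc8 from 3.8 to 49.4 (2.68). Cdkn1a, the p21 inhibitor of the cell cycle, went from 199 to 1254 (2.63), one of 3 of 7 cell cycle inhibitors that were higher. Of 21 bright contractile and actin genes, 6 were higher and none lower (median 0.75). The imprinted genes split: 6 of 19 were higher and 4 lower. Among them Igf2, a fetal growth factor, went from 368 to 2219 (2.58) and Grb10, an adaptor that restrains growth, from 84.3 to 946 (3.42), while Phlda2, a placental growth restrainer, went from 217 to 70.5 (-1.56) and Nnat (neuronatin) from 126 to 18.7 (-2.48).

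The 10 feeder-type lists were those of fibroblast markers, contractile genes, matrix proteases, chemokines, secreted growth factors, Hox genes and YAP and TEAD targets. They also included sex chromosome transcripts, cell cycle inhibitors and imprinted genes, so not every member is a fibroblast marker. Together, 109 of 181 bright genes (60.2%) were at least 2-fold higher and 7 (3.87%) lower. The 8 ES-type lists covered pluripotency, epithelial junction and primed epiblast genes and the Nodal, FGF, LIF, BMP and Wnt pathways. Of their 135 bright genes, 8 (5.93%) were higher and 14 (10.4%) lower, and 8 of the lower ones were primed epiblast genes. Over all genes the shares were 8.83% and 1.94%. The lists name only a small part of the difference: 156 of the 1025 higher genes and 35 of the 225 lower genes stood in any list.

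**Figure D2:**
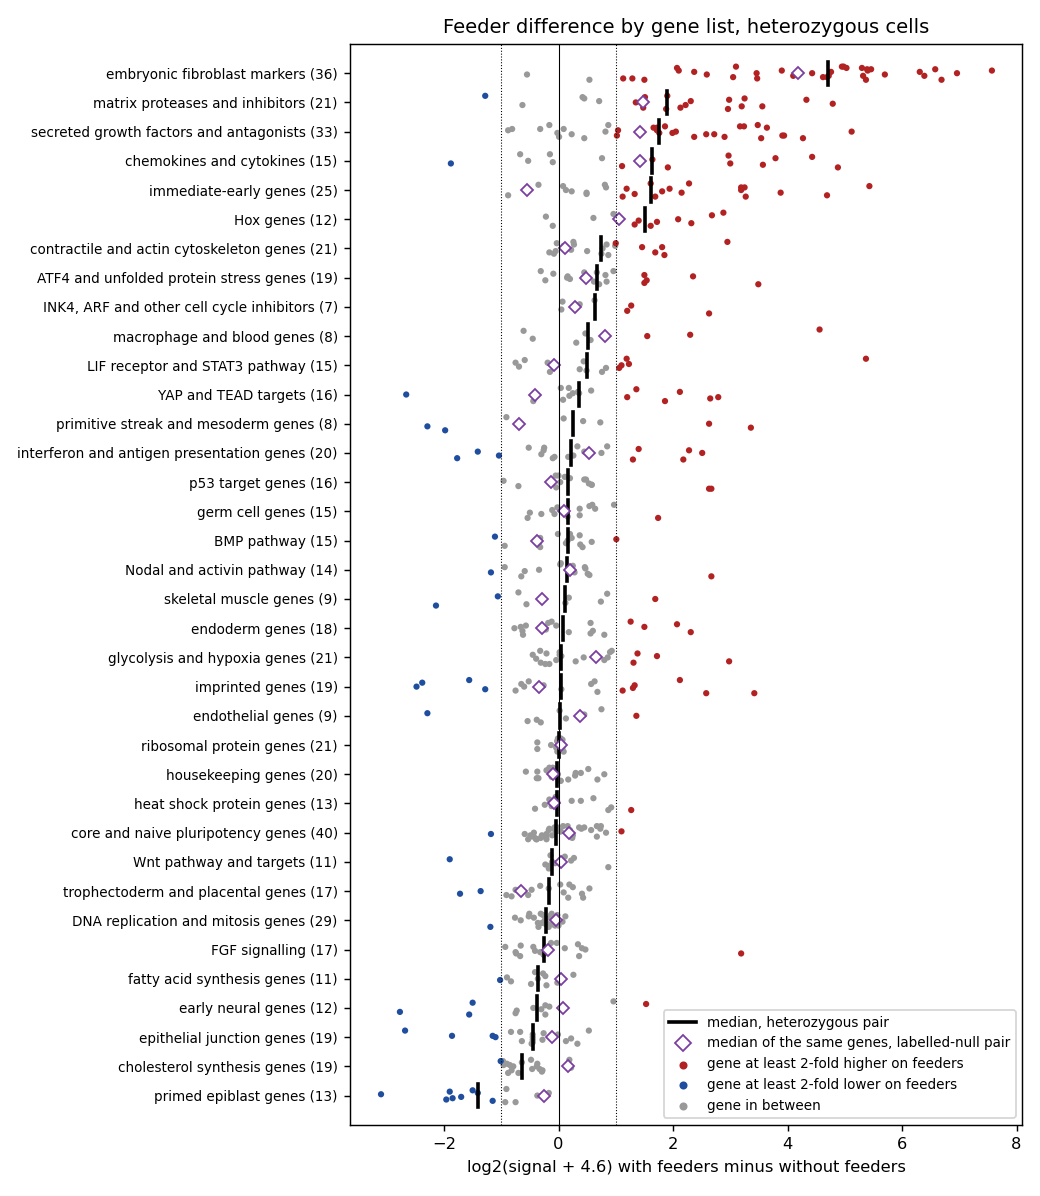
Each row is a gene list with at least 5 bright members, with their number in parentheses, and each point is 1 gene at its log2 difference with feeders minus without in heterozygous cells. Bars mark the median and open diamonds the median of the same genes in the line labelled null, and the dotted lines mark 2-fold. Fibroblast markers lie at the top with a median of 4.70 and primed epiblast genes at the bottom with -1.41, and the immediate-early list has the widest gap between bar (1.61) and diamond (-0.55).

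Markers of other cells that a fibroblast layer could carry were also read, beside 8.83% higher and 1.94% lower among all genes. Of 23 macrophage and blood genes, 15 were dim on both arrays and 3 of the 8 bright ones were higher, with a summed signal of 346 without and 686 with feeders. Lyz2, the lysozyme of macrophages, went from 1.6 to 142 (4.56), and the leukocyte gene Cd53 from 5.9 to 47.1 (2.30). Csf1r, the receptor that defines macrophages, read 22.8 without and 33.4 with feeders, a difference of 0.47. Of 14 endothelial genes 9 were bright, with 1 higher and 1 lower, and of 16 skeletal muscle genes 9 were bright, with 1 higher and 2 lower. Eif2s3y, a Y-linked translation factor, read 78.2 and 91.8 in heterozygous cells (0.22), and in the line labelled null 1.0 on gelatin and 66.4 on feeders (3.66). Xist, the RNA of the inactive X chromosome, read 184 and 347 (0.90), and in the line labelled null 170.0 and 346 (1.01).

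The core of the ES cell programme read nearly alike with and without feeders. Of 43 pluripotency genes 40 were read and all 40 were bright, with 1 higher, 1 lower and 38 in between. Their median difference was -0.05, which lay between -0.21 and 0.03 over the other settings tried and so has no fixed direction. Their summed signal was 50245 without and 49198 with feeders. Pou5f1, which encodes Oct3/4, read 1284 and 1112 (-0.21). Sox2 read 2661 and 2554 (-0.06) and Nanog 1745 and 2069 (0.25). The feeder array thus held the fibroblast signal beside a pluripotency signal of nearly the same size as on gelatin.

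The pluripotency gene above 2-fold was Klf4, a LIF-driven factor of the naive state, at 572 without and 1230.5 with feeders (1.10). That was the brighter of its 2 probe sets, and the other differed by 0.52, short of 2-fold. By the brighter probe set Klf4 differed by 0.73 in the line labelled null. Of the other 38 genes, those with the largest positive differences included 3 factors of the naive state that did not reach 2-fold: Tfcp2l1 read 385 and 686 (0.83), Klf2 630.1 and 1055 (0.74), and Klf5 724 and 1157 (0.67). Tfcp2l1 and Klf5 each also had a probe set of opposite sign, at -0.16 and -0.31, and 22 of the 40 pluripotency genes lay below 0. Lin28a, the RNA-binding protein that blocks let-7 maturation and whose level increases as cells leave the naive state, was the gene past 2-fold on the other side, at 1005 and 442 (-1.18), with -0.86 in the line labelled null. Klf4 is also expressed by fibroblasts, and which cells gave its signal was not tested.

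Genes of the primed epiblast were the list lowest on feeders. All 13 were read, all 13 were bright and all 13 lay below 0. Of them 8 were at least 2-fold lower, against 1.94% of all genes, the median was -1.41, and the summed signal went from 4347 to 1958. Pou3f1 (Oct6), a POU factor of the epiblast and early neural plate, read 426 without and 45.6 with feeders, a difference of -3.10. Car4, a membrane carbonic anhydrase, read 172 and 40.8 (-1.96). Lef1, the DNA-binding partner of beta-catenin, read 88.2 and 20.3 (-1.90). Each of these was several times brighter on the gelatin array than on the feeder array.

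The methylation, kinase and transcription factor genes of the list ran the same way. Dnmt3a, which methylates DNA de novo, read 273 and 72.6 (-1.85) by its brightest probe set, but its 5 probe sets ranged from -1.85 to 0.27. Pim2, a survival kinase, read 269.7 and 80.0 (-1.70), and Sox3, a neural and epiblast relative of Sox2, 49.8 and 14.6 (-1.50). Fgf5, the classical epiblast growth factor, read 28.3 and 12.7 (-0.93), a difference short of 2-fold at a dim level. The remaining members below 2-fold reached -0.17.

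The same 13 genes had a median difference of -0.26 in the line labelled null, where 2 of 11 bright members were at least 2-fold lower, against 2.72% of all genes in that line. On gelatin, the heterozygous array was the brighter for Pou3f1, at 426 against 136, for Pim2, at 269.7 against 103, and for Dnmt3a, at 273 against 105. Lef1 went the other way, at 88.2 against 261, and read 288 on feeders in the line labelled null. On feeders the 2 lines read 45.6 and 54.1 for Pou3f1 and 80.0 and 88.6 for Pim2. The summed fibroblast signal differed between the same heterozygous arrays, from 5537 to 36082, and its part in the lower primed genes was not tested.

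**Figure D3:**
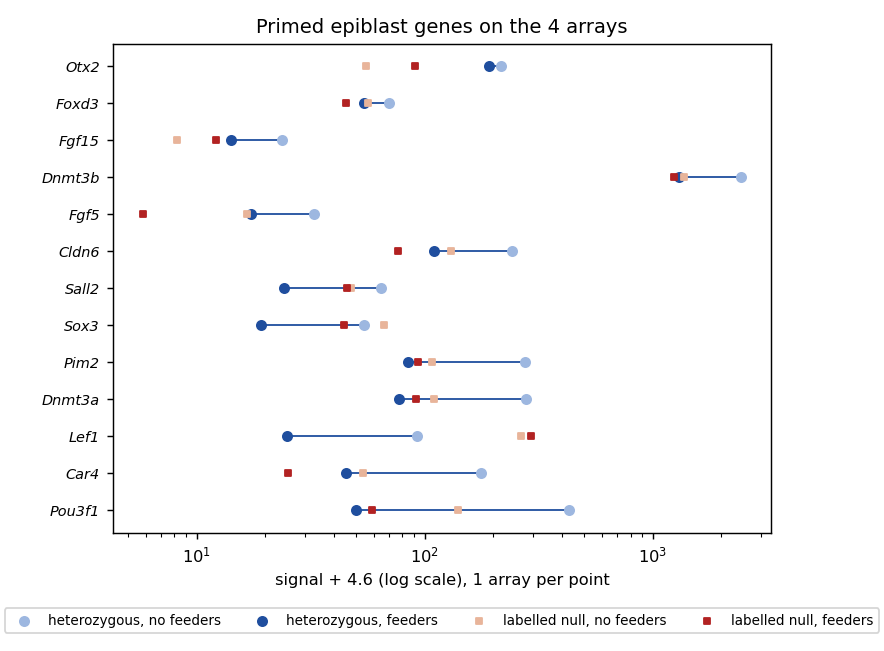
The 13 primed epiblast genes are shown by their signal plus 4.6 (logarithmic x axis) on each of the 4 arrays, 1 array per point, with a line joining the heterozygous arrays. The heterozygous array without feeders (light circle) is to the right of the one with feeders (dark circle) in all 13 genes, and the arrays of the line labelled null (squares) lie closer together for most of them.

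Of 19 bright epithelial junction genes, 4 were at least 2-fold lower on feeders, against 1.94% of all genes, none was higher and 15 lay in between, with a median of -0.45. The 4 were Krt8, Krt18, Cldn6 and Dsp. Others, given after their values were seen, lay nearer to 0: the cadherin Cdh1 at -0.47, the adhesion molecule Epcam at -0.45, the protease inhibitor Spint1 at -0.01 and the claudin Cldn4 at 0.53. Krt8, a keratin of simple epithelia, read 847 without and 128 with feeders (-2.68), and in the line labelled null 933 and 107 (-3.08). Its filament partner Krt18 read 1087 and 296 (-1.86), and in the line labelled null 1284 and 159 (-2.98). Krt19, added after its values were seen, read 179 and 56.8 (-1.58). For these keratins both gelatin arrays were above both feeder arrays. The tight junction gene Cldn6 differed by -1.15, and the desmosome gene Dsp by -1.10 with its 3 probe sets between -1.25 and -0.39.

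The remaining genes among the 20 lowest have mixed roles. The carbonic anhydrase Car2 went from 1417 to 226 (-2.62), and Ajuba, a LIM protein of cell junctions, from 1233 to 191 (-2.66). The muscle carbonic anhydrase Car3 went from 156 to 7.4 (-3.74), but its 4 probe sets ranged from -3.74 to -0.09. Sox11, a neural and mesenchymal factor, went from 298 to 39.7 (-2.77), again with a probe set at -0.01. Gbp2b, an interferon-induced GTPase, went from 137 to 16.5 (-2.75), and in the line labelled null from 183 to 27.6 (-2.54). The cadherin Cdh9 went from 29.0 to 0.4 (-2.75) and in the line labelled null from 27.2 to 45.3 (0.65). The order of the lowest genes depends on the offset: with 1 in place of 4.6, Cdh9 differed by -4.42, the neuropeptide gene Nts by -4.41 and Car3 by -4.22. Among lower genes that were bright on gelatin, the surface glycoprotein Cd24a went from 1274 to 339 (-1.89), Pclaf, a PCNA-binding protein, from 1521 to 581 (-1.38), the mitochondrial respiratory gene ND5 from 2662 to 1124 (-1.24) and the corepressor Tle4 from 1168 to 561 (-1.05).

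Among the signalling pathways of ES cells, the LIF receptor and STAT3 pathway had the most genes higher on feeders. In it 5 of 15 genes were higher, against 8.83% of all genes, and none was lower, with a median of 0.49 (-0.08 in the line labelled null). The largest was Osmr, the oncostatin M receptor, from 8.6 to 542 (5.37), and in the line labelled null from 46.9 to 467 (3.20). The others included Il6st (gp130) at 209 and 441 (1.06), Jak1 at 1.19 and Jak2 at 1.23. Another 5 members lay below 0: Gbx2 at -0.75, Pim1 at -0.69, Socs3 at -0.59, Lifr at -0.19 and Pim3 at -0.15. Which cells gave these signals, and whether the pathway was more active, was not tested. In the Nodal and activin pathway 1 of 14 was higher and 1 lower. The higher one was Ltbp3, which stores latent TGF-beta in matrix, from 43.0 to 297 (2.67). The lower one was Lefty2, the Nodal antagonist, which read 427 and 186 (-1.18) but 167 and 444 in the line labelled null (1.39). Lefty1, its relative, read 1271 and 661 (-0.94) against 902 and 1804 (1.00).

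In the BMP pathway 1 of 15 genes was higher and 1 lower. For this list and those that follow, the shares among all genes were 8.83% and 1.94%. The BMP target Id2 went from 308 to 139.7 (-1.11), Id1 read 302 and 155 (-0.94), and Id3 read 433 and 647 (0.58), so the Id genes did not move as one. Of 17 bright FGF signalling genes 1 was higher, Egr1, which also stands in the immediate-early list, and none lower. Of 11 bright Wnt genes none was higher and 1 lower, Lef1. Among lineage genes, 2 of 8 bright streak and mesoderm genes were higher and 2 lower: the fibroblast and mesenchyme repressor Snai2 went from 43.5 to 489 (3.36) and the streak factor Mixl1 from 21.0 to 1.9 (-1.98). Of 18 bright endoderm genes 4 were higher, and these were Plat, Pdgfra, Sparc and Col4a2; Pdgfra and Sparc also stand in the fibroblast list. Of 17 bright trophectoderm genes 2 were lower, and of 12 bright early neural genes 1 was higher and 3 lower.

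Immediate-early genes, which respond to growth factors and stress within minutes and then decay, were higher on feeders in heterozygous cells. Of 25 bright members 16 were at least 2-fold higher on feeders and none lower, against 8.83% and 1.94% of all genes. Their median was 1.61 and their summed signal went from 4344 to 11506. Fos, a subunit of the AP-1 transcription factor, read 84.3 without and 854 with feeders in heterozygous cells (3.27), and 203 and 138 in the line labelled null (-0.54). Egr1, a zinc finger factor, read 198 and 1853 (3.19), and 309 and 353 in the line labelled null (0.19). Its relative Egr2 read 7.2 and 299.5 (4.69), and 7.8 and 9.7 (0.21). For these 3 genes the heterozygous feeder array stood well above the other 3 arrays.

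Egr3, of the same family, had the largest difference of the list, from 11.8 to 701 (5.43) by the brighter of its 2 probe sets and 1.13 by the other. In the line labelled null it read 33.6 and 14.2 (-1.02). Ptgs2 (cyclooxygenase 2, which makes prostaglandins) read 46.4 and 744 (3.88), and 230.3 and 180.5 in the line labelled null (-0.34). Nr4a3, an orphan nuclear receptor, went from 0.8 to 46.8 (3.25), with 1 of its 3 probe sets at -0.07. In the line labelled null the 25 genes had a median of -0.55, and 7 of the 21 bright there were at least 2-fold lower and none higher, against 2.72% and 7.3% of all genes in that line. The fibroblast markers were higher on feeders in that line too, with a median of 4.19. Which cells gave the immediate-early signals was not tested.

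**Figure D4:**
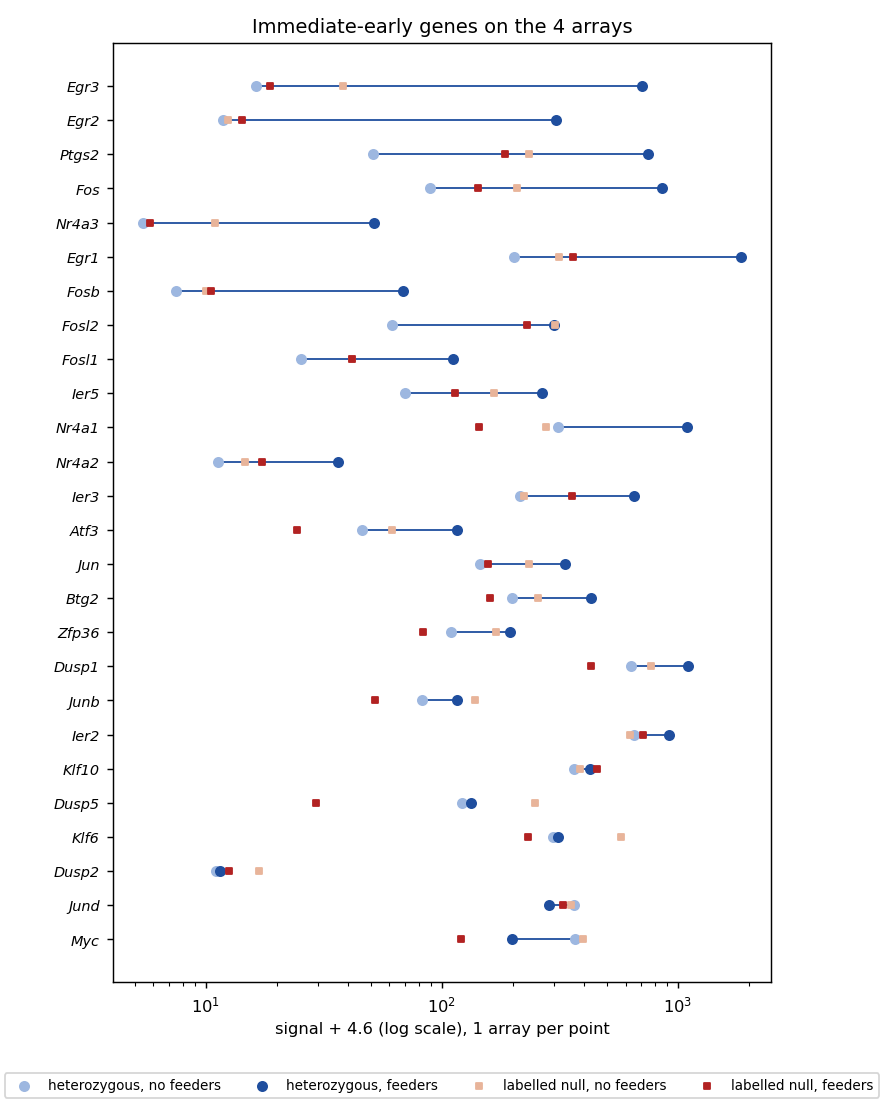
The 26 immediate-early genes are shown by their signal plus 4.6 (logarithmic x axis) on each of the 4 arrays, 1 array per point, with a line joining the heterozygous arrays. From Egr3 at the top down to Btg2 the heterozygous feeder array (dark circle) is more than 2-fold to the right of the gelatin array (light circle), while no gene bright in the line labelled null (squares) is 2-fold higher on feeders there.

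Many immediate-early genes are induced through the CArG box, the site bound by serum response factor. Promoter windows were read from RefSeq sequence on build GRCm38.p6, 250 bases before to 50 after each start site, on both strands, the motif being the same on either. Of 26 listed genes 20 had a window, and 3 of these held a match: Dusp5, Egr2 and Zfp36. These genes had 24 windows, since a gene can have several starts, and 6 of the 24 held a match: 4 of the 5 windows of Egr2 and 1 each of Dusp5 and Zfp36. Over all 32851 windows 1.63% held one, and 488 of 27025 genes (1.81%). Below, 1 matching window is shown for each of the 3 genes. Each is 5' to 3' on the gene's strand, with the match in capitals. They lie at chr19:53528895-53529194 (plus strand) for Dusp5, chr10:67537316-67537615 (plus) for Egr2 and chr7:28379179-28379478 (minus) for Zfp36.
Dusp5: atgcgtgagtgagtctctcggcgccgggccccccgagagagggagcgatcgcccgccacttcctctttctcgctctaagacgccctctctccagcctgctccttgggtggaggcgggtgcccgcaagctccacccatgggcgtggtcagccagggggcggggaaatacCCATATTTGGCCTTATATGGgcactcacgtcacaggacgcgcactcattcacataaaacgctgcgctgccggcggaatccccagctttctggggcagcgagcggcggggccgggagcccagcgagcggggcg
Egr2: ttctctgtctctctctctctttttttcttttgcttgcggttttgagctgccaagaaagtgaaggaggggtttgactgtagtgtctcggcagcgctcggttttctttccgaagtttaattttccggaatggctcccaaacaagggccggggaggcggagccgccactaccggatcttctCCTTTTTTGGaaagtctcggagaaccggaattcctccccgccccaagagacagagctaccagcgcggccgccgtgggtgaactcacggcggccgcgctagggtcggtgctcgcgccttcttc
Zfp36: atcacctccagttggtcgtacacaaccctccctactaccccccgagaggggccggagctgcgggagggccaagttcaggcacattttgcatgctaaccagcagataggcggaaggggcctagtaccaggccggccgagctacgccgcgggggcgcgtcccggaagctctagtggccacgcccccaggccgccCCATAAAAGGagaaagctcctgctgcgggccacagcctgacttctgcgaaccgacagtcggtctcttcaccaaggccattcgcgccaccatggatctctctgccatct
Dusp5 held 2 adjoining matches, beginning 82 and 72 bases before the start site, Egr2 1 at 72 bases and Zfp36 1 at 58 bases. A match is a description of letters and not a measured site, and the other genes' windows say nothing of sites farther away. Dusp5, a phosphatase that switches off ERK, read 117 and 128 in heterozygous cells (0.13) and 242 and 24.7 in the line labelled null (-3.08). Zfp36 (tristetraprolin, which destabilises AU-rich RNAs) read 105 and 189.7 (0.83) and 165 and 78.7 (-1.03), and Egr2 had the values given above.

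Targets of YAP and TEAD, the effectors of the Hippo pathway that respond to stretch and cell contact, resembled the immediate-early genes in part. Of 16 members 6 were higher and 1 lower, against 8.83% and 1.94% of all genes. Their median was 0.35, and -0.41 in the line labelled null. Ccn1, a matricellular signalling protein, read 361 and 1589.7 (2.12) in heterozygous cells, and 756 and 559 in the line labelled null (-0.43). Ccn2, of the same family, read 606 and 2214 (1.86), against 1539 and 755 (-1.02). Ankrd1, a stretch-responsive nuclear protein, was higher on feeders in both lines, at 27.4 and 216 (2.79) and at 18.9 and 76.0 (1.78). The 1 lower member, Ajuba, was lower in both lines, at 1233 and 191 (-2.66) and at 1172 and 290.0 (-2.0).

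Metabolic and stress genes completed the lists, and their counts stand beside 8.83% higher and 1.94% lower among all genes. Of 19 cholesterol synthesis genes 17 lay below 0 on feeders, with a median of -0.64, but 1 was 2-fold lower, Stard4, a sterol carrier, at 240.2 and 117 (-1.01). Hmgcs1, which makes HMG-CoA, read 1945 and 1056 (-0.88), and 927 and 909 in the line labelled null (-0.03), where the list's median was 0.16. Of 19 bright genes of the ATF4 and unfolded protein response 5 were higher and none lower (median 0.67). Among them the glutathione-degrading enzyme Chac1 went from 40.7 to 227 (2.35) and the pseudokinase Trib3 from 79.0 to 238 (1.54). Of 20 bright interferon and antigen presentation genes 5 were higher and 3 lower: B2m, the light chain of MHC class I, went from 288 to 1316 (2.18), while the GTPase Gbp2 went from 153 to 41.6 (-1.77).

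Hypoxia and cell cycle genes were also read. Of 21 bright glycolysis and hypoxia genes 4 were higher and none lower, against 8.83% and 1.94% of all genes. Among them the vasodilator peptide Adm went from 21.8 to 204 (2.98) and the angiogenic factor Vegfa from 47.1 to 166 (1.72). Of 29 DNA replication and mitosis genes 27 lay below 0, with a median of -0.21, and 1 was 2-fold lower, the G1 cyclin Ccne1 at 569.7 and 247 (-1.19). None of 21 ribosomal protein genes and none of 20 housekeeping genes was 2-fold different, with medians of 0.01 and -0.02.

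The feeder differences of the 2 lines share no array and can be set side by side. In the line labelled null 844 genes (7.3%) were at least 2-fold higher on feeders and 314 (2.72%) lower. Of 11098 genes bright in both pairs, 505 (4.55%) were higher in both, which is 49.3% of the heterozygous list and 59.8% of the other. A total of 69 (0.622%) were lower in both, which is 30.7% and 22.0% of the lists. Among the 1025 genes higher in heterozygous cells, the median difference was 1.57 there and 1.03 in the line labelled null, and 917 of them (89.5%) were above 0 in it. Of the 225 lower ones 184 (81.8%) were below 0, with medians of -1.27 and -0.66. Over these 11098 genes, which are not independent of each other, Pearson's r between the 2 differences was 0.701 and Spearman's rho 0.519.

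**Figure D5:**
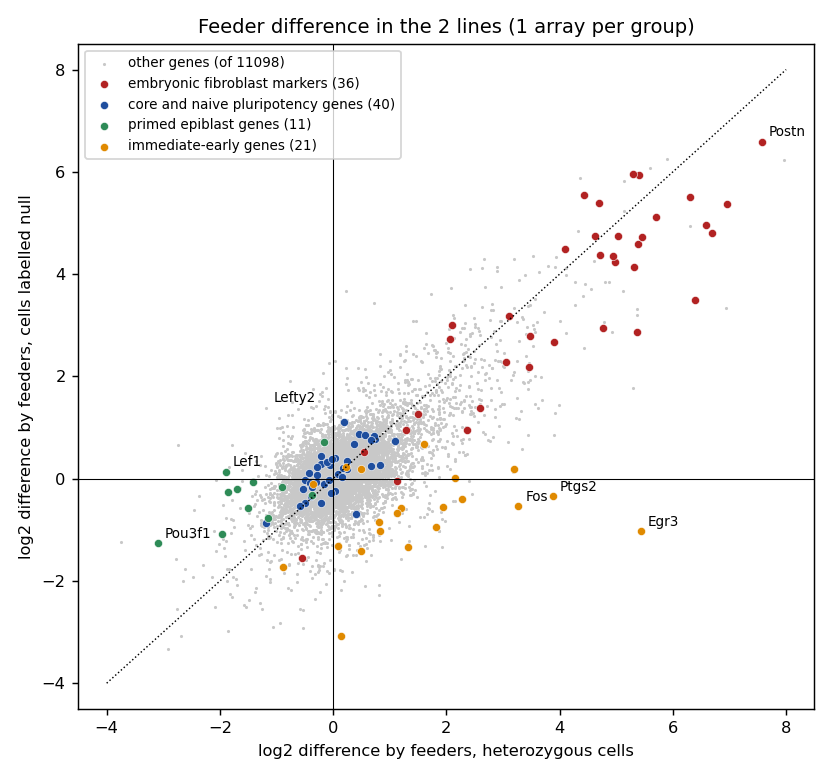
Each point is 1 of 11098 genes, with the log2 difference by feeders in heterozygous cells on the x axis and in the line labelled null on the y axis, and the dotted line marks equality. Most fibroblast markers (red) are high on both axes, and the immediate-early genes (orange) extend to the right, with Egr3 at 5.43 and -1.02, Fos at 3.27 and -0.54 and Egr1 at 3.19 and 0.19.

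The gap between the pairs, the heterozygous difference minus the other, was ranked over genes bright in both. On the positive side stood Egr3, Ptgs2, Fos, Tm4sf1, Ereg, Errfi1, Dusp5 and Phlda1, with gaps from 6.45 down to 3.08. Ereg (epiregulin, a ligand of the EGF receptor) read 3.4 and 309.7 (5.30), and 13.0 and 55.9 in the line labelled null (1.78). Errfi1, which inhibits that receptor, read 424 and 1618 (1.92), against 996 and 392 (-1.34). Tm4sf1, a surface protein of mesenchymal cells, was on feeders about as bright in either line, at 686 and 599, and its gap came from gelatin, at 1.0 and 55.1. On the other side stood Eif2s3y, Cdh9, Myom2, Glcci1, Lefty2, Car3, Ltb and Col27a1, with gaps from -3.44 to -2.33. With 1 array per group, none of these gaps was tested.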

How the data were processed

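Total RNA (3 µg) from each of 4 mouse ES cell cultures was converted to cDNA, and 1 µg of cDNA was transcribed to labelled cRNA for 1 Affymetrix array per culture, per the labels. The authors deposited a table of MAS5 signal, an array intensity on a linear scale, with 45101 probe sets. MAS5 is named in the submitters' processing notes, and its version and the genome build are not given in the sources used here. Both heterozygous cultures and both labelled-null cultures were used, and the number of per-sample columns not used was 0. The 64 control probe sets were dropped. By the platform's gene table, 34945 probe sets carried exactly 1 symbol and 932 more than 1, and 9160 had no entry there. The RefSeq table changed 0 symbols, and 18193 genes were read.

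From the deposited signals, log2(signal + 4.6) was computed and each gene was read by the probe set with the highest mean over the 4 arrays. A gene was bright when the brighter array of a pair was above 17.1, and was counted at a log2 difference of at least 1 either way. No test was made, since each of the 4 groups has 1 array. A few names on the lists were not read here. The steps were tested on simulated data. Python 3.11.15, pandas 2.3.3, NumPy 2.4.6, SciPy 1.17.1 and Matplotlib 3.10.9 were used.

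The genes named are Sall4, Pou5f1, Sox2, Nanog, Vim and 3 collagens; the 20 highest and 20 lowest; up to 6 members of each of 37 lists with the largest difference; the 8 largest gaps between the lines in each direction; and the 6 brightest higher and 6 brightest lower genes. Krt19, Fst, Zfp36 and the genes with opposite directions in the 2 lines were added after their values were seen. The members, lists and rules were chosen with earlier results of these data known, and the immediate-early and primed epiblast lists showed in those results, so their counts are not independent support. Alternatives changed the offset, filter, scaling, probe set choice and fold threshold.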

Additional observations from a re-analysis of the deposited data

Results flagged for a closer look

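Of 11098 genes bright in both pairs, 10 were at least 2-fold higher on feeders in one line and at least 2-fold lower in the other. Of the same genes, 505 (4.55%) were higher in both lines and 69 (0.622%) lower in both. The difference between the lines was not tested for any of the 10, since each group has 1 array. All 10 were picked out after their values were seen.

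Of these, 9 were higher on feeders in heterozygous cells and lower on feeders in the line labelled null. Egr3, an immediate-early factor, differed by 5.43 in heterozygous cells and -1.02 in the line labelled null. Errfi1, the inhibitor of the EGF receptor, differed by 1.92 and -1.34. The matricellular gene Ccn2 differed by 1.86 and -1.02. Atf3, a stress-induced transcription factor of the immediate-early list, read 41.2 and 111 on the heterozygous arrays (1.33) and 56.8 and 19.7 on the others (-1.34). F3 (tissue factor, which starts coagulation) read 210.5 and 489.8 (1.20) and 602 and 199.8 (-1.57). Igfbp4, which binds insulin-like growth factors, read 115 and 237 (1.02) and 507 and 219 (-1.19), with its 6 probe sets between -0.31 and 1.11 in heterozygous cells. Pla2g7, the enzyme that cleaves platelet-activating factor, read 39.4 and 131 (1.62) and 546 and 218 (-1.31). Prkg2, a kinase activated by cyclic GMP, read 19.8 and 57.5 (1.35) and 100.1 and 40.4 (-1.22), with a probe set at -0.43 in heterozygous cells. Serpinb1b, a protease inhibitor, read 9.7 and 47.4 (1.86) and 49.9 and 22.2 (-1.02).

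The Nodal antagonist Lefty2 ran the other way, at -1.18 in heterozygous cells and 1.39 in the line labelled null. In each of the 9 genes the gelatin array of the line labelled null was brighter than the heterozygous gelatin array. The genes were picked by these same values, and that choice favours this order, so it is not a separate result.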

How the results depend on the processing

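With 1 array per group, a size rule has no error to set beside a change of setting. Under settings not named here, each count stayed within 1.5 times its value. The 1025 higher genes became 461 with a filter at the 75th percentile of signals (90.6), 508 at 3-fold and 1711 with every probe set counted. The 225 lower genes became 104 with the offset at the median, 631 with no filter, 94 with the stricter filter, 377 with median centring, 62 at 3-fold and 597 over probe sets. The 505 genes higher in both lines became 237, 253 and 818 under the stricter filter, 3-fold and probe sets. The 69 lower in both became 40, 115, 36, 18 and 190 under the larger offset, no filter, stricter filter, 3-fold and probe sets. Over probe sets the fibroblast count of 34 became 59, the immediate-early count of 16 became 25, the primed count of 8 became 13 and the lower pluripotency count of 1 became 2. At 3-fold the last was 0 and the primed count 5, as it was under the stricter filter. The share of higher genes among those counted was 69.4% without a filter. With probe sets whose names end in _at without a letter, Lyz1 turned to -1.26 and Dlk1 to -0.10, because another probe set was read; all other named genes at least 2-fold different kept their direction. The medians of 13 lists, all between -0.17 and 0.26, changed sign under some setting, and the stricter filter left no Hox gene for a median. The counts in both lines and of the immediate-early and primed lists were chosen after seeing the data. No paired analysis was possible because the result is 1 difference between 1 array per condition, with no test.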

Other observations

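Probe sets without a single gene symbol had a different balance of higher to lower than probe sets with 1 symbol. Of 3198 without, with the brighter heterozygous array above 17.1, 202 were at least 2-fold higher and 225 at least 2-fold lower on feeders. Counted in the same way, each probe set by itself, those with 1 symbol gave 1711 higher and 597 lower. How many of those with 1 symbol were above 17.1 is not given here, so shares cannot be set side by side. Of 15 bright germ cell genes 1 was higher. Among all genes 8.83% were higher and 1.94% lower, the shares to set beside this list and those that follow. The germ cell gene was Smc1b, a cohesin subunit of meiosis. It read 13.6 without and 56.0 with feeders in heterozygous cells (1.74), and 0.7 and 1.1 in the line labelled null. Of 16 p53 target genes 2 were higher, with the death receptor Fas from 2.4 to 40.1 (2.67) and Cdkn1a. Of 13 heat shock genes 1 was higher, Hspa1a, from 44.8 to 114 (1.27). Of 11 fatty acid synthesis genes 10 lay below 0 and 1 was 2-fold lower, the desaturase Fads2, from 124 to 58.9 (-1.02).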
